A study of Mus musculus with 6 samples.

Results

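The genes described here are 49 genes of the cell cycle and of DNA replication, grouped as a module by their symbols, with earlier results of these data known. All 49 were found among the 38293 genes of a table of raw RNA-seq counts, and all 49 were among the 14746 genes with enough counts to be tested. The counts came from hearts of 3 WT and 3 Zeb2 cKO mice, each mouse giving 1 library, collected 14 days after myocardial infarction (MI). All 6 mice were of the backcrossed C57BL/6J strain and had a permanent ligation of the LAD, the left anterior descending coronary artery, at 8 to 10 weeks of age. The Zeb2 cKO mice carried floxed Zeb2 and a Cre recombinase driven by the αMHC promoter, which is active in cardiomyocytes only, so that the other cell types of the heart kept Zeb2. The mice that the labels call WT are named Zeb2 fl/fl in the study, floxed mice without the deletion. The labels place the tissue in the border region of the infarct, whereas the methods of the study name the remote zone. By their known roles the genes fell into 8 genes of G1 and S entry, 14 genes of DNA replication and 27 genes of G2 and mitosis.

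None of the 49 genes differed between Zeb2 cKO and WT hearts beyond the spread between mice. The larger differences lay within the Zeb2 cKO group. Most genes of G2 and mitosis, among them Mki67, Top2a and Ccnb2, were lowest in Zeb2 cKO replicate 1 and highest in Zeb2 cKO replicate 3. Their mean was 2.30-fold higher in the latter, and the means of the WT mice lay between. The difference of the mitotic means between the genotypes was 0.088 on the log2 scale with all libraries, and its sign turned without Zeb2 cKO replicate 3 (-0.17) or without WT replicate 2 (-0.0077). Only 1 mouse stood at each of these extremes, so the difference between them was not tested.

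A dividing cell passes from G1, in which D-type cyclins and their kinases release E2F factors, through S phase, in which the MCM helicase is loaded and the DNA is copied, into G2 and mitosis, in which cyclin B with Cdk1 drives the separation of the chromosomes. The mitotic genes are transcribed late in the cycle, so their RNA is found mainly in cells that are dividing. Most adult cardiomyocytes have left the cycle, and in an infarcted heart the dividing cells are mostly fibroblasts, endothelial cells and immune cells. D-type cyclins and CDK inhibitors, by contrast, are also transcribed in cells that do not divide. In bulk tissue, fewer cells of a type and less RNA per cell cannot be told apart.

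Zeb2, the deleted gene, was at 61.3, 116 and 71.9 CPM in WT replicates 1 to 3 and at 59.6, 72.6 and 66.5 CPM in Zeb2 cKO replicates 1 to 3. CPM are counts scaled to a common library size after TMM normalization, in units of counts per 1e6, and replicates are listed in this order throughout. The groups overlapped, and the log2 fold change, Zeb2 cKO against WT, was -0.33 ± 0.25 (standard error). In edgeR's quasi-likelihood fit, adjusted after Benjamini and Hochberg over all tested genes, its adjusted p was 0.957. Library totals lay between 37288174 and 51136331 counts, of which 14301225 to 19024394 lay outside the mitochondrially encoded genes. Cardiomyocyte markers were abundant in every library, with Pln, which encodes phospholamban, between 1560 and 2930 CPM. WT replicate 2 stood apart from the other libraries. It held the highest value of 10 of 10 macrophage markers and of 10 of 10 fibroblast markers (and of 35.2% of all tested genes), and the lowest value of 9 of 10 cardiomyocyte markers (34.6% of all). Over all tested genes, 0 had an adjusted p under 0.05 in edgeR, 280 had an unadjusted p under 0.05, and DESeq2 called 1 gene, Slc46a2, a solute carrier that is not in the module.

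The 3 roles also differed in their promoters, which are shown here because the mitotic genes moved together across libraries. RefSeq windows of GRCm38.p6, from 250 bases before to 50 after the start site, were at hand for 39 of the 49 genes and for 27025 genes in all. Ccnd1, Ccnd2, Ccne2, Mcm4, Gins2, Ccna2, Aurkb, Kif20a, Tpx2 and Foxm1 had no entry. On both strands the windows were searched for the cell cycle homology region or CHR (TTTGAA), through which late cell cycle genes are repressed outside division, the CCAAT box (CCAAT), the E2F motif (TTCCCGC or TTGGCGC) and the E-box of ZEB factors (CACCTG). None of these motifs contains another. The CHR stood in 17 of 22 promoters of G2 and mitosis (77.3%), in 1 of 12 of DNA replication (8.33%), that of Mcm2, and in 0 of 5 of G1 and S entry, against 18.1% of all promoters. The E2F motif stood in 7 of 12 promoters of DNA replication (58.3%) and in 4 of 22 of G2 and mitosis (18.2%), against 6.93% of all promoters. A CCAAT box was present in 19 of the 22 mitotic promoters (86.4%) and in 37.9% of all promoters, and 16 of the 22 (72.7%) held a CHR and a CCAAT box, against 7.12% of all. The E-box was found in 3 of the 39 promoters (7.69%), those of Tyms, Nusap1 and Ect2, and in 20% of all promoters. These matches are letters in a window and do not show that a factor binds there.

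Ccnb2 was printed as a mitotic gene with several matches, chosen after its values were seen, and Birc5 and Cdt1 as the genes with the smallest p of their roles. Matches are in capitals. Ccnb2 lies on the minus strand of chromosome 9, and its window is chr9:70421505-70421804, with the CHR starting at bases -167 and 5 and CCAAT boxes starting at bases -87, -54 and -21, counted from the start site. Birc5 lies on the plus strand of chromosome 11, and its window, chr11:117848987-117849286, held none of the 4 motifs. Cdt1 lies on the plus strand of chromosome 8, and its window, chr8:122567765-122568064, held E2F motifs starting at bases 19 and 34, the first of them read on the opposite strand.
Ccnb2: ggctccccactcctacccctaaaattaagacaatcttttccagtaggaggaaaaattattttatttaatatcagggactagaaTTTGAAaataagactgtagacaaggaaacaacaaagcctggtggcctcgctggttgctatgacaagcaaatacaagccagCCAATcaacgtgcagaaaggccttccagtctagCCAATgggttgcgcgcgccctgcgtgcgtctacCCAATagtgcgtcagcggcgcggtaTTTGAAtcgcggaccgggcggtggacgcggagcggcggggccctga
Birc5: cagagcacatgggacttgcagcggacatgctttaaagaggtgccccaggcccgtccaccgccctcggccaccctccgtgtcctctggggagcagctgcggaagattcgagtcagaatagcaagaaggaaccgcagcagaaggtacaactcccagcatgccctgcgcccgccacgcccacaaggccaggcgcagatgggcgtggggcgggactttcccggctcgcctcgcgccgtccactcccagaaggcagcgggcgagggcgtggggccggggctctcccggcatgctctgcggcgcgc
Cdt1: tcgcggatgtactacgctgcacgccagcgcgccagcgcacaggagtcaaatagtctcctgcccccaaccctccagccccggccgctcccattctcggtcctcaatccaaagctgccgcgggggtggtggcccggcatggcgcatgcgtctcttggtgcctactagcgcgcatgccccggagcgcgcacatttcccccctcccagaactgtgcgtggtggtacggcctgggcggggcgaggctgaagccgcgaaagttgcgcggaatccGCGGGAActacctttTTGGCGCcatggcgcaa
Between the extremes of the Zeb2 cKO group, the median log2 difference, replicate 3 minus replicate 1, was 1.2 over the 18 genes of the module with a CHR and 0.65 over the 21 without. Over other cell cycle genes it was 0.91 in the 40 with a CHR and 0.44 in the 51 without. Over all tested genes with a promoter it was -0.013 in the 1242 with a CHR and 1.9e-05 in the 9349 without. These libraries are the extremes of the mitotic genes, which hold 17 of the module's 18 promoters with a CHR, so a larger median there follows from the choice of libraries. Motif and role cannot be told apart here, and no difference was tested.

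**Figure D1:**
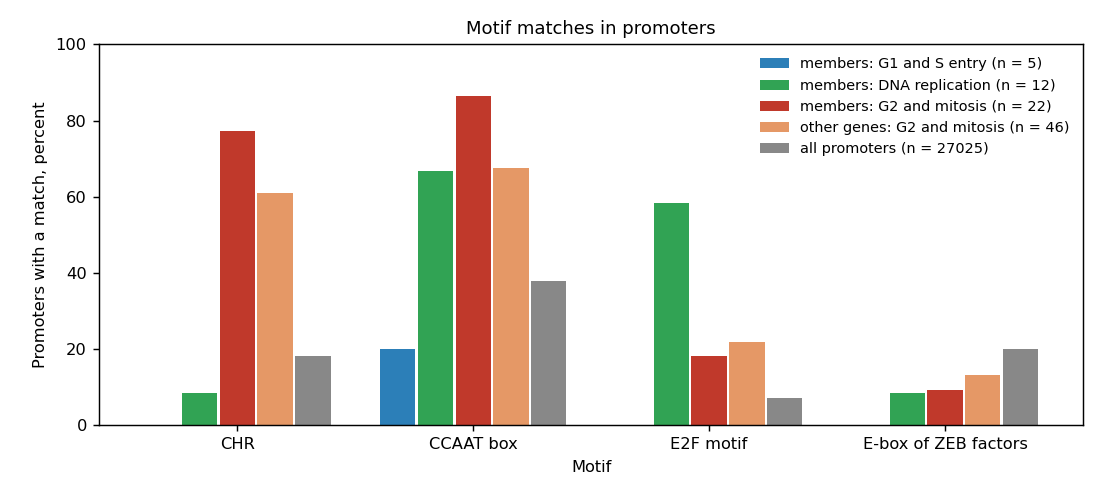
Bars give the percent of promoters with a match to each motif (x axis), by role of the module's genes, for other genes of G2 and mitosis, and for all 27025 promoters, with the number of promoters in the key. The CHR and CCAAT bars are tallest for G2 and mitosis (77.3% and 86.4%) and the E2F bar for DNA replication (58.3%).

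The comparison of Zeb2 cKO with WT addresses whether loss of Zeb2 in cardiomyocytes goes with another level of proliferation genes in the infarcted heart. Of the 49 genes, 5 had a log2 fold change under -0.2, a limit the study uses, while 22.6% of all tested genes lay under it, and 9 had one over 0.2, while 15.9% of all genes lay over it. The other 35 lay between these limits. An unadjusted p under 0.05 was reached by 0 of the 49 in either direction, beside 0.861% of all genes in the lower and 1.04% in the higher direction. The groups overlapped for 49 of 49 genes, whereas they did not overlap for 6.36% of all genes. Adjusted p-values in the edgeR fit were 0.957 or higher, and exact permutation tests for single genes (two-sided, smallest possible p = 0.1) gave 0.2 or higher. The median log2 fold change of the 49 genes was 0.07, against -0.0069 over all tested genes.

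**Figure D2:**
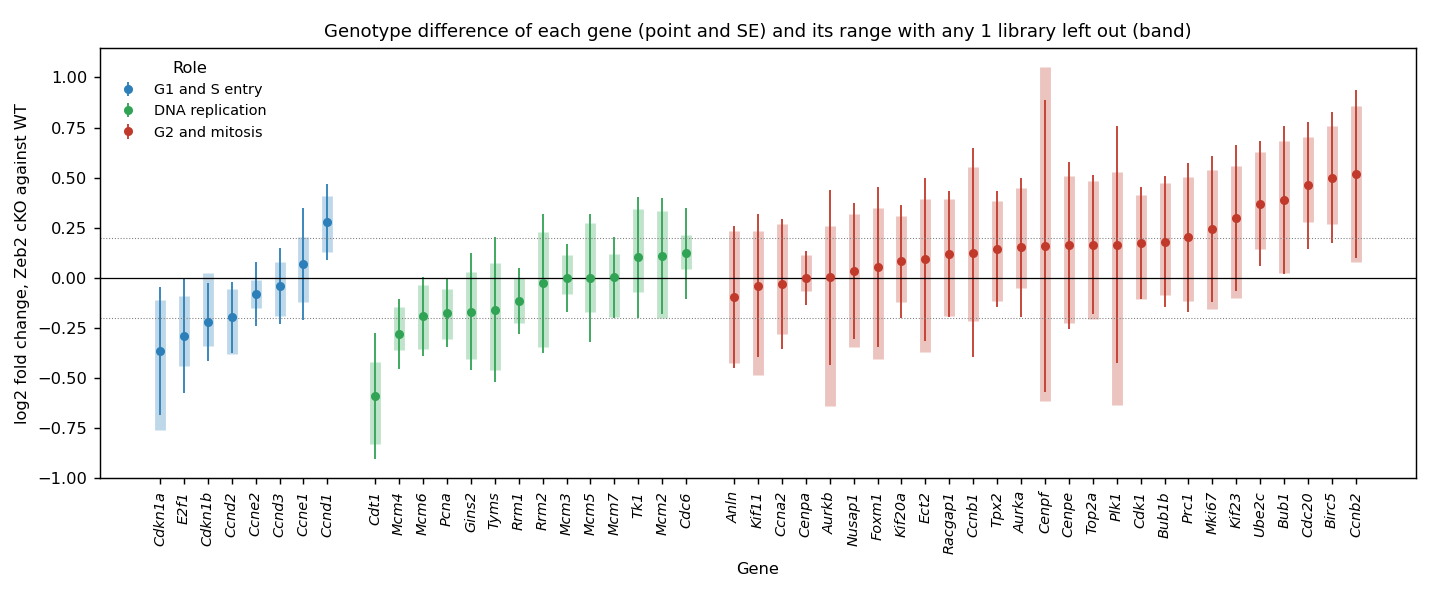
Points give the log2 fold change (y axis, Zeb2 cKO against WT) of each of the 49 genes (x axis) with its standard error, colored by role, and bands give the range of the value when any 1 library is left out. Dotted lines mark -0.2 and 0.2, and the bands of most genes of G2 and mitosis cross 0.

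Among the genes of G1 and S entry, 3 of 8 lay under -0.2 (37.5%, against 22.6% of all tested genes). Only 1 lay over 0.2 (12.5%, against 15.9%), and the median was -0.14. Ccnd1 and Ccnd2 had the highest levels of the module per length. Ccnd1, which activates Cdk4 and Cdk6, had a mean of 7.06 CPM per kb of exon, and Ccnd2 one of 5.66. It was at 31.7, 23.3 and 35.2 CPM in WT and at 36.1, 31.2 and 42.0 CPM in Zeb2 cKO hearts, a log2 fold change of 0.28 ± 0.19 (SE, adjusted p = 0.957). The highest of the 6 values was that of Zeb2 cKO replicate 3 and the lowest that of WT replicate 2. Of the Ccnd1 transcript, 29.5% is shared with LTO1, which overlaps it on the opposite strand. The strand option of the counting is not given, so some Ccnd1 reads may belong to LTO1. How many was not tested. Ccnd2, another D-type cyclin, was at 55.9, 59.3 and 55.5 CPM in WT and at 39.3, 48.0 and 61.6 CPM in Zeb2 cKO hearts. Here WT varied little, and the Zeb2 cKO mice lay on either side of WT. Ccnd3, the remaining D-type cyclin, was at 13.5, 9.05 and 12.3 CPM in WT and at 9.89, 10.8 and 13.2 CPM in Zeb2 cKO hearts, with a log2 fold change of -0.04. Of the E-type cyclins, which start S phase with Cdk2, Ccne2 lay between 2.19 and 2.65 CPM, the narrowest range of the 49 genes (1.21-fold). Ccne1 lay between 0.469 and 0.726 CPM over the 6 libraries (1.55-fold).

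The inhibitors of the cyclin-dependent kinases were high in WT replicate 2. Cdkn1a, the p53 target p21, was at 5.68, 9.23 and 6.15 CPM in WT and at 4.16, 4.15 and 8.02 CPM in Zeb2 cKO hearts. Zeb2 cKO replicates 1 and 2 lay below every WT library and replicate 3 did not. Its log2 fold change was -0.37 ± 0.32 (SE, adjusted p = 0.957), and without Zeb2 cKO replicate 3 it was -0.76 (edgeR unadjusted p = 0.0265, adjusted p = 0.915). Cdkn1b, or p27, which holds cells in G1, was at 16.4, 24.9 and 15.7 CPM in WT and at 16.4, 17.3 and 15.2 CPM in Zeb2 cKO hearts. Apart from WT replicate 2 its values lay between 15.2 and 17.3 CPM, and without that library its log2 fold change was 0.02 rather than -0.22. E2f1, an activator of S phase genes, was low, at 0.664, 0.798 and 0.833 CPM in WT and at 0.44, 0.691 and 0.744 CPM in Zeb2 cKO hearts. Its lowest value was that of Zeb2 cKO replicate 1, and the groups overlapped (log2 fold change -0.29 ± 0.28, SE). Of 12 other p53 targets, 4 lay under -0.2 (33.3%, against 22.6% of all tested genes) and 1 lay over 0.2 (8.33%, against 15.9%). An unadjusted p under 0.05 was reached by 0 of the 12, beside 0.861% of all genes in the lower and 1.04% in the higher direction. The 2 of smallest p in the lower direction were Zmat3, at 6.74, 11.5 and 8.65 CPM in WT and 6.02, 5.67 and 8.28 CPM in Zeb2 cKO hearts, and Phlda3, with a log2 fold change of -0.50.

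Among the genes of DNA replication, 2 of 14 lay under -0.2 (14.3%, against 22.6% of all tested genes). Over 0.2 lay 0 of the 14 (against 15.9%), and the median was -0.07. Cdt1, which loads the MCM helicase onto origins and whose promoter is shown above, had the smallest p of the 49 genes. The gene (ENSMUSG00000006585) spans bases 122568015 to 122573554 of chromosome 8. It was at 0.956, 0.934 and 0.625 CPM in WT and at 0.42, 0.737 and 0.521 CPM in Zeb2 cKO hearts. These values rest on small counts of 36, 41, 24, 21, 32 and 28. Zeb2 cKO replicates 1 and 3 lay below every WT library, and replicate 2 lay within the WT range. The log2 fold change was -0.59 ± 0.32 (SE, adjusted p = 0.957, exact permutation p = 0.2, two-sided), and it stayed between -0.83 and -0.42 with any 1 library left out. Mcm4, a helicase subunit, was at 5.23, 6.77 and 5.34 CPM in WT and at 3.98, 5.30 and 5.02 CPM in Zeb2 cKO hearts. Its groups overlapped by 1 library as well (log2 fold change -0.28 ± 0.17, SE, exact permutation p = 0.2, two-sided).

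The other helicase subunits did not lie to one side. Mcm2 was at 5.58, 4.40 and 3.83 CPM in WT and at 3.30, 6.91 and 4.69 CPM in Zeb2 cKO hearts, so that the lowest and the highest library were both Zeb2 cKO. Mcm5 was at 3.40, 2.51 and 3.83 CPM in WT and at 1.88, 3.89 and 3.95 CPM in Zeb2 cKO hearts, with group means of 3.24 CPM each. Mcm3, Mcm6 and Mcm7 had log2 fold changes of -0.0025, -0.19 and 0.0021. Pcna, the sliding clamp of the DNA polymerases, had the highest level of the replication genes per length, 2.54 CPM per kb. It was at 6.05, 7.47 and 5.86 CPM in WT and at 4.98, 6.73 and 5.47 CPM in Zeb2 cKO hearts, a spread of each group that covers the difference between them (log2 fold change -0.18 ± 0.17, SE). The enzymes that make deoxynucleotides, Rrm1, Rrm2, Tyms and Tk1, had log2 fold changes between -0.16 (Tyms) and 0.10 (Tk1). Cdc6, which loads the helicase with Cdt1, lay between 0.69 and 0.912 CPM in the 6 libraries, and Gins2, a subunit of the active helicase, between 0.48 and 0.899 CPM. Reads of some of these genes may belong to other genes, since 81.2% of the Mcm7 transcript, 70.7% of that of Gins2 and 51.4% of that of Pcna is near-identical to, or overlaps, the transcripts of others.

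Among the genes of G2 and mitosis, 0 of 27 lay under -0.2 (22.6% of all tested genes) and 8 lay over 0.2 (29.6%, against 15.9%). A log2 fold change above 0 was found for 23 of the 27, and for 7167 of all 14746 tested genes. The median of the 27 was 0.16. The 8 were Ccnb2, Birc5, Cdc20, Bub1, Ube2c, Kif23, Mki67 and Prc1. Ccnb2 encodes cyclin B2, a partner of Cdk1, and had the largest log2 fold change above 0 of the 49 genes. The gene (ENSMUSG00000032218) spans bases 70407692 to 70421547 of chromosome 9. It was at 1.19, 0.934 and 1.2 CPM in WT and at 0.739, 1.61 and 2.40 CPM in Zeb2 cKO hearts. Zeb2 cKO replicate 1 lay below every WT library, and the other Zeb2 cKO libraries lay above. The log2 fold change was 0.52 ± 0.42 (SE, adjusted p = 0.957, exact permutation p = 0.5, two-sided). Birc5, or survivin, a subunit of the chromosomal passenger complex, followed the same order, at 0.637, 0.661 and 0.599 CPM in WT and 0.54, 0.991 and 1.15 CPM in Zeb2 cKO hearts. Its log2 fold change was 0.50 ± 0.33 (SE). Cdc20, which activates the ubiquitin ligase that ends metaphase, was at 1.33, 0.934 and 0.885 CPM in WT and at 0.919, 1.80 and 1.62 CPM in Zeb2 cKO hearts. Its highest value was that of Zeb2 cKO replicate 2 and its lowest that of WT replicate 3 (log2 fold change 0.46 ± 0.32, SE).

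The widely used proliferation markers differed less between the genotypes, and their lowest values were those of Zeb2 cKO replicate 1. Mki67, the gene of the Ki-67 antigen, was the most abundant mitotic gene per length (2.24 CPM per kb). The gene (ENSMUSG00000031004) lies on the minus strand of chromosome 7 from 135689784 to 135716361. It was at 21.9, 14.9 and 25.3 CPM in WT and at 13.5, 23.6 and 36.3 CPM in Zeb2 cKO hearts, with a mean ± SD of 20.7 ± 5.29 in the former and 24.5 ± 11.4 in the latter (n = 3). The Zeb2 cKO libraries spanned the whole WT range on both sides. Top2a, the topoisomerase that untangles replicated chromosomes, was at 10.4, 9.23 and 11.6 CPM in WT and at 5.96, 12.1 and 16.9 CPM in Zeb2 cKO hearts, 2.83-fold apart between the outer Zeb2 cKO mice. Cdk1, the kinase of mitotic entry, was at 2.23, 2.14 and 2.29 CPM in WT and at 1.60, 2.54 and 3.37 CPM in Zeb2 cKO hearts. The SD of Cdk1 was 0.0753 CPM in WT and 0.885 CPM in Zeb2 cKO hearts. Ccnb1, cyclin B1, was at 0.584, 0.547 and 0.625 CPM in WT and at 0.2, 0.922 and 0.8 CPM in Zeb2 cKO hearts, from 22, 24, 24, 10, 40 and 43 counts. These counts are small, and 51.9% of the Ccnb1 transcript is near-identical to pseudogenes.

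The remaining mitotic genes are grouped by what they do. The spindle checkpoint kinases were low in Zeb2 cKO replicate 1 and high in Zeb2 cKO replicate 3, with Bub1 at 1.01, 0.889 and 1.22 CPM in WT and 0.739, 1.38 and 1.95 CPM in Zeb2 cKO hearts, and Bub1b at 2.26, 2.07 and 1.93 CPM in WT and 1.30, 2.65 and 3.15 CPM in Zeb2 cKO hearts. Of the mitotic kinases, Aurkb was at 0.823, 0.661 and 0.781 CPM in WT and at 0.46, 0.507 and 1.28 CPM in Zeb2 cKO hearts, and Plk1 at 0.372, 0.205 and 0.443 CPM in WT and 0.16, 0.277 and 0.689 CPM in Zeb2 cKO hearts. In both, Zeb2 cKO replicate 3 was the highest library and replicate 1 the lowest. Zeb2 cKO replicate 2 lay below every WT library for Aurkb and within the WT range for Plk1. Aurka was instead highest in WT replicate 1, at 1.14 CPM, and its Zeb2 cKO values of 0.639, 1.11 and 1.02 CPM lay within the WT range. The spindle motors Kif11, Kif20a, Kif23 and Cenpe had log2 fold changes between -0.04 (Kif11) and 0.30 (Kif23). Kif11, which pushes the spindle poles apart, was at 3.27, 3.14 and 4.53 CPM in WT and at 2.08, 3.13 and 5.42 CPM in Zeb2 cKO hearts, so that the Zeb2 cKO values enclosed those of WT.

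The genes of cytokinesis, the division of the cell body, followed the same order. Anln, or anillin, a scaffold of the contractile ring, was at 4.35, 4.65 and 4.35 CPM in WT and at 2.04, 4.61 and 5.84 CPM in Zeb2 cKO hearts. Its SD was 0.171 CPM in WT and 1.94 CPM in Zeb2 cKO hearts, around means of 4.45 and 4.16 CPM. Racgap1 and Ect2, which together activate RhoA at the cell equator, were at 1.48, 2.63 and 3.50 CPM and at 0.879, 1.5 and 2.51 CPM in Zeb2 cKO hearts, against WT ranges of 2.07 to 2.48 CPM and 1.09 to 1.77 CPM. Prc1, which bundles microtubules of the midzone, had a log2 fold change of 0.20, and Tpx2 and Nusap1, which organize spindle microtubules, had 0.15 and 0.04. Foxm1, a transcription factor that activates genes of G2 and mitosis, was at 1.30, 0.866 and 0.99 CPM in WT and at 0.6, 0.991 and 1.67 CPM in Zeb2 cKO hearts. Its lowest and its highest value were both in Zeb2 cKO hearts. Ccna2, cyclin A2, which serves S phase and mitosis, was at 3.42, 3.44 and 4.35 CPM in WT and at 2.00, 4.17 and 4.82 CPM in Zeb2 cKO hearts (log2 fold change -0.03).

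**Figure D3:**
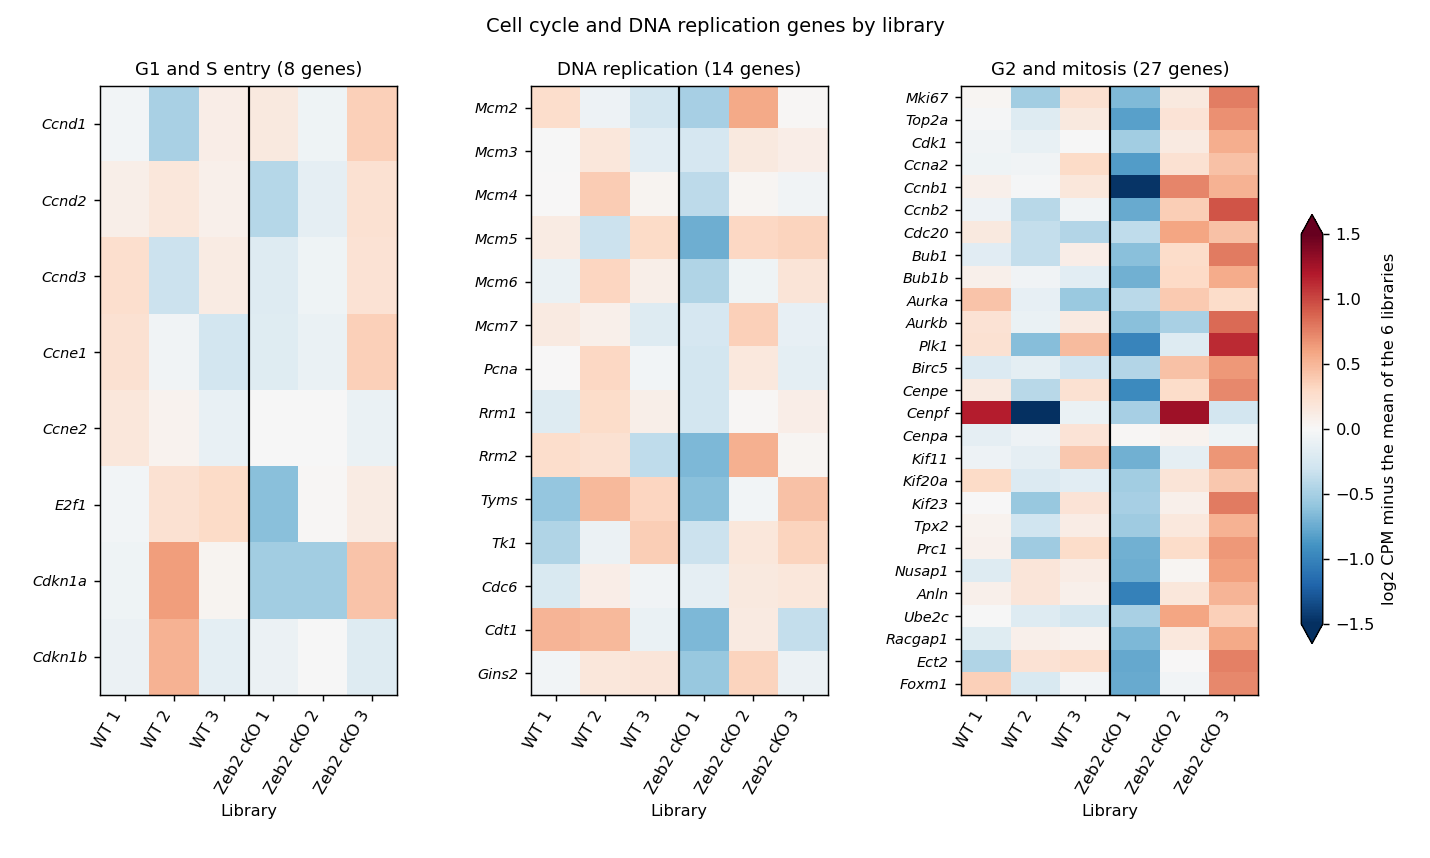
Each cell gives the log2 CPM of a gene in a library minus its mean over the 6 libraries (color scale, log2 units, with values past 1.5 in the end colors), with genes in rows by role and libraries in columns, the genotypes split by the black line. The column of Zeb2 cKO replicate 1 is blue and that of Zeb2 cKO replicate 3 red through nearly all genes of G2 and mitosis, and Cenpf and Cenpa are the rows that depart most from this.

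The module mean, the mean log2 CPM of the 49 genes relative to its mean over the 6 libraries, was 0.038, -0.069 and 0.032 in WT and -0.51, 0.16 and 0.35 in Zeb2 cKO hearts. The group means were almost equal, 0.00026 ± 0.060 (SD) in WT and -0.00026 ± 0.46 (SD) in Zeb2 cKO with n = 3, while the SD was larger in Zeb2 cKO. The mean of the genes of G2 and mitosis was 0.061, -0.24 and 0.049 in WT and -0.64, 0.22 and 0.55 in Zeb2 cKO hearts, and the difference of the group means was 0.088. For DNA replication the means were -0.020, 0.17 and 0.011 in WT and -0.43, 0.19 and 0.067 in Zeb2 cKO hearts, a difference of -0.11. For G1 and S entry they were 0.061, 0.090 and 0.014 in WT and -0.23, -0.11 and 0.17 in Zeb2 cKO hearts, again a difference of -0.11. Zeb2 cKO replicate 1 was the lowest library for each of the 3 roles, whereas Zeb2 cKO replicate 3 was the highest for G1 and S entry and for mitosis but not for replication.

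Counted gene by gene, 22 of the 27 genes of G2 and mitosis were lowest in Zeb2 cKO replicate 1 (81.5%, against 16.9% of all tested genes), and 21 were highest in Zeb2 cKO replicate 3 (77.8%, against 10%). For 21 of the 27, replicate 3 was over 2 times replicate 1 (77.8%, against 2.89%). The ratio reached 4.31 for Plk1 and 4.0 for Ccnb1, both from few counts, 3.25 for Ccnb2 and 3.19 for Cenpe, a kinesin of the kinetochore. Of the genes of DNA replication, 12 of 14 were lowest in Zeb2 cKO replicate 1 (85.7%), but 2 of 14 were highest in Zeb2 cKO replicate 3 and 6 were highest in WT replicate 2 (42.9%, against 35.2%). Only Mcm5 and Tyms of these 14 were over 2 times higher in replicate 3 than in replicate 1. The mitotic mean minus the replication mean therefore differed between libraries, at 0.081, -0.41 and 0.037 in WT and -0.22, 0.028 and 0.49 in Zeb2 cKO hearts. It was lowest in WT replicate 2 and highest in Zeb2 cKO replicate 3.

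The spread within groups was described by the SD of log2 CPM. It was larger in Zeb2 cKO than in WT for 24 of 27 genes of G2 and mitosis (88.9%), for 11 of 14 of DNA replication and for 4 of 8 of G1 and S entry, against 28.7% of all tested genes. The median SD of the mitotic genes was 0.22 in WT and 0.68 in Zeb2 cKO hearts, while over all tested genes it was 0.28 and 0.16. With 3 mice a group, 1 mouse sets much of an SD, and the difference in spread was not tested.

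Cenpf and Cenpa, singled out after their values were seen, departed from the other mitotic genes. Cenpf, a large protein of the kinetochore and nuclear envelope, was at 24.2, 3.60 and 10 CPM in WT and at 7.59, 25.8 and 8.82 CPM in Zeb2 cKO hearts. The highest library exceeded the lowest 7.16-fold, the widest range of the 49 genes, and 1 mouse of each genotype was high, WT replicate 1 and Zeb2 cKO replicate 2. These values rest on 910, 158, 385, 380, 1119 and 474 counts, and 1.75% of the Cenpf transcript is shared with other genes. Its log2 fold change of 0.16 had a standard error of 0.73 and moved between -0.61 and 1.05 with 1 library left out. Leaving Cenpf out of the mitotic mean changed the difference of the group means from 0.088 to 0.079. Cenpa, the histone H3 variant of centromeres, was at 7.86, 8.16 and 9.97 CPM in WT and at 8.75, 8.94 and 8.28 CPM in Zeb2 cKO hearts, with a highest value 1.27-fold the lowest. The promoters of Cenpf and Cenpa each held 1 CHR and 2 CCAAT boxes, like those of other mitotic genes.

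**Figure D4:**
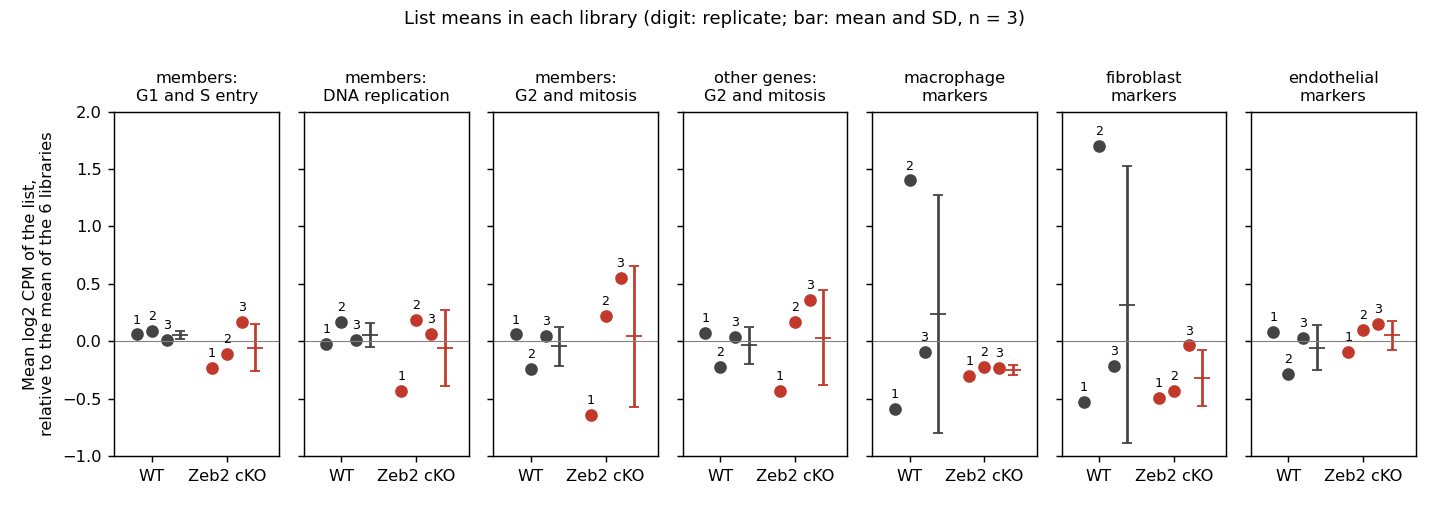
Points give the mean log2 CPM of each list in each library relative to the 6 libraries (y axis, log2 units), numbered by replicate, with the group mean and SD (n = 3) beside them. The Zeb2 cKO points of G2 and mitosis spread from -0.64 to 0.55, whereas the macrophage and fibroblast points are apart in WT replicate 2 (1.4 and 1.7).

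The genotype difference was therefore computed again without each library. Without Zeb2 cKO replicate 1, 3 of the 49 genes lay under -0.2 (22.1% of all genes) and 32 over 0.2 (15.4%), among them 26 of the 27 mitotic genes, all but Cenpa. An unadjusted p under 0.05 was then reached by 4 genes in the higher direction (0.5% of all genes): Ccnb2, Birc5, Cdc20 and Ube2c, the ubiquitin-conjugating enzyme that works with Cdc20. Their log2 fold changes were 0.86, 0.76, 0.70 and 0.63, and their adjusted p-values in edgeR were 1.0. The groups did not overlap for 15 genes, all higher in Zeb2 cKO (5.82% of all genes were higher without overlap). Without Zeb2 cKO replicate 3, in contrast, 17 of the 49 lay under -0.2 (26.9% of all genes) and 4 over 0.2 (20.6%). Then 10 mitotic genes lay under -0.2, and 2 genes reached an unadjusted p under 0.05 in the lower direction (1.39% of all genes), Cdkn1a and Ccnd2 (log2 fold change -0.38, adjusted p = 0.915).

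The counts also moved with the other libraries. Without WT replicate 2, the library high in macrophage and fibroblast markers, 3 genes lay under -0.2 (11.7% of all genes) and 6 over 0.2 (14.2%), and 5 of these 6 were mitotic. Without WT replicate 1 the counts were 11 under -0.2 (28.8%) and 18 over 0.2 (26.5%), without WT replicate 3 they were 9 (27.2%) and 15 (21.8%), and without Zeb2 cKO replicate 2 they were 11 (23.6%) and 9 (15.7%). Of the 27 mitotic genes, 8 lay over 0.2 with all libraries, 15 without WT replicate 1, 13 without WT replicate 3 and 8 without Zeb2 cKO replicate 2. Without any 1 of these 4 libraries, 0 of the 49 genes had an unadjusted p under 0.05, beside 7.52% of all genes without WT replicate 1, 2.63% without WT replicate 2, 2.51% without WT replicate 3 and 1.2% without Zeb2 cKO replicate 2. The difference of the mitotic means was 0.43 without Zeb2 cKO replicate 1, -0.17 without Zeb2 cKO replicate 3, 0.14 without WT replicate 1, -0.0077 without WT replicate 2, 0.13 without WT replicate 3 and 0.0013 without Zeb2 cKO replicate 2.

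**Figure D5:**
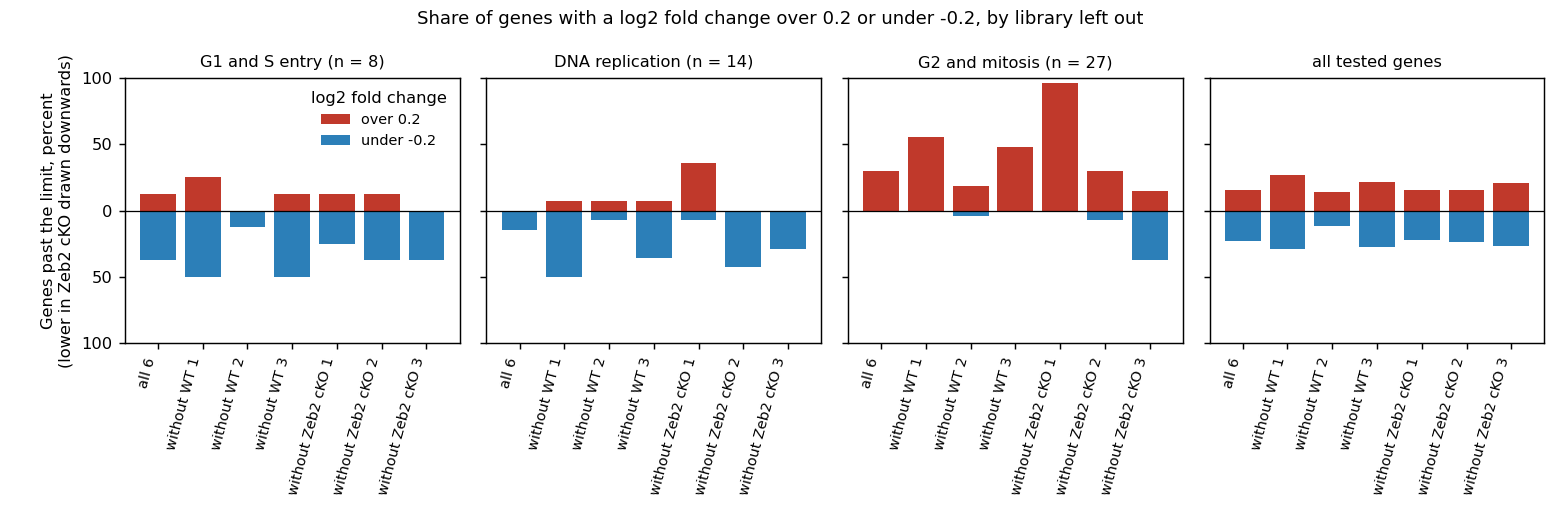
Bars give the percent of genes with a log2 fold change over 0.2 (red, upwards) or under -0.2 (blue, downwards) with all 6 libraries and without each library (x axis), by role and for all tested genes. For G2 and mitosis the red bar reaches 26 of 27 genes without Zeb2 cKO replicate 1, and the blue bar is tallest without Zeb2 cKO replicate 3 (10 of 27).

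Marker lists of cell types were set beside the module. The mean of 10 macrophage markers was -0.59, 1.4 and -0.089 in WT and -0.30, -0.22 and -0.23 in Zeb2 cKO hearts, and that of 10 fibroblast markers was -0.53, 1.7 and -0.21 in WT and -0.49, -0.43 and -0.035 in Zeb2 cKO hearts. On the log2 scale, Zeb2 cKO replicate 3 exceeded replicate 1 by 0.065 in the macrophage mean, by 0.46 in the fibroblast mean (1.37-fold) and by 1.2 in the mitotic mean. WT replicate 2, highest in both marker lists, held the highest value of 0 of the 27 mitotic genes and of 35.2% of all tested genes. Summed macrophage markers ranged from 225 to 895 CPM in WT and from 273 to 297 CPM in Zeb2 cKO hearts, and summed fibroblast markers from 1820 to 10400 CPM and from 1790 to 2520 CPM. The mean of 10 endothelial markers was 0.082, -0.28 and 0.028 in WT and -0.090, 0.10 and 0.15 in Zeb2 cKO hearts, with the lowest value in WT replicate 2. The mean of 8 smooth muscle and pericyte markers was lowest in WT replicate 2 (-0.23) and highest in Zeb2 cKO replicate 2 (0.29). The mean of 10 cardiomyocyte markers was lowest in WT replicate 2 (-0.74), and it was 0.25, 0.14 and -0.054 in Zeb2 cKO hearts.

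Of the B cell genes, Cd79b and Ms4a1 are given here, chosen after their values were seen. Cd79b, a subunit of the B cell receptor, was at 0.558, 1.48 and 0.339 CPM in WT and at 0.32, 0.438 and 0.707 CPM in Zeb2 cKO hearts, from 13 to 65 counts a library. Ms4a1, the gene of the CD20 antigen, was at 0.664, 0.547 and 0.208 CPM in WT and at 0.18, 0.184 and 0.484 CPM in Zeb2 cKO hearts, from 8 to 26 counts a library. Zeb2 cKO replicate 3 was 2.21-fold and 2.69-fold above replicate 1 for these genes, as the mitotic genes were higher there. In WT, Cd79b was highest in replicate 2, where the mitotic mean was the lowest of WT. The T cell genes Cd3e and Cd3d were at 0 counts in WT replicate 1 and at 1 to 6 counts in the Zeb2 cKO libraries. The part of B cells, of endothelial cells or of any other cell type in the differences of the mitotic genes was not tested.

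Of 116 other cell cycle genes, listed by hand, 115 were found in the table and 110 were tested, and 14 of the 110 lay under -0.2 (22.6% of all tested genes) and 29 over 0.2 (15.9% of all). An unadjusted p under 0.05 was reached by 0 in the lower direction (0.861% of all) and 2 in the higher direction (1.04% of all), a number close to the share over all genes, and an adjusted p under 0.05 by 0. The 2 were Cit, a kinase of the cleavage furrow, and Cdc25a, a phosphatase that activates Cdk2. Cit was at 2.20, 1.41 and 1.64 CPM in WT and at 3.58, 2.28 and 2.70 CPM in Zeb2 cKO hearts (log2 fold change 0.70 ± 0.25, SE, adjusted p = 0.957). Cdc25a was at 2.73, 2.69 and 2.92 CPM in WT and at 3.62, 3.34 and 3.93 CPM in Zeb2 cKO hearts (log2 fold change 0.39 ± 0.15, SE, adjusted p = 0.957). For both genes every Zeb2 cKO library lay above every WT library, and 3.39% of all tested genes were higher without overlap. Unlike most mitotic genes of the module, Cit was highest in Zeb2 cKO replicate 1, and Cdc25a was the same within 1.09-fold between Zeb2 cKO replicates 1 and 3.

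Most of the other genes of G2 and mitosis followed the module's mitotic genes. Of 51 tested, 34 were lowest in Zeb2 cKO replicate 1 (66.7%, against 16.9% of all tested genes). In Zeb2 cKO replicate 3, 28 were highest (54.9%, against 10%), and 25 were over 2 times replicate 1 (49.0%, against 2.89%). Against this order, 4 of the 51 were highest in Zeb2 cKO replicate 1 and 1 was lowest in Zeb2 cKO replicate 3. Among these 4 was Pttg1, at 19.6, 1.12 and 10.1 CPM in WT and at 23.2, 21.4 and 1.12 CPM in Zeb2 cKO hearts. The mean of the 51 genes was 0.074, -0.22 and 0.040 in WT and -0.43, 0.17 and 0.36 in Zeb2 cKO hearts, a 1.73-fold range between the outer Zeb2 cKO mice. With all libraries 6 of the 51 lay under -0.2 (22.6% of all genes) and 21 over 0.2 (15.9% of all). Without Zeb2 cKO replicate 1 these were 1 (22.1% of all) and 33 (15.4% of all) of 52 tested. Without Zeb2 cKO replicate 3 they were 18 (26.9% of all) and 6 (20.6% of all) of 51. Mad2l1, of the spindle checkpoint, and Smc4, a condensin subunit, had the smallest p in the lower direction (log2 fold changes -0.38 and -0.25), and beside Cit, Stmn1, which destabilizes microtubules, had the smallest in the higher direction (0.62).

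Of 37 other replication genes, 4 lay under -0.2 and 4 over 0.2 (10.8% each). Of 22 other genes of G1 and S entry, 4 lay under -0.2 and 4 over 0.2 (18.2% each). Over all tested genes the shares were 22.6% under -0.2 and 15.9% over 0.2. Gins1, a subunit of the replicative helicase like Gins2 of the module, was at 0.743, 0.729 and 0.859 CPM in WT and at 0.6, 0.553 and 0.502 CPM in Zeb2 cKO hearts. Every Zeb2 cKO library lay below every WT library, as for 2.97% of all tested genes (log2 fold change -0.49 ± 0.23, SE, adjusted p = 0.957). Pole2, a subunit of DNA polymerase epsilon, had a log2 fold change of -0.55, and Dut, which clears dUTP, and Rfc4, of the clamp loader, had 0.42 and 0.24. Cdkn2b, the CDK inhibitor p15, was at 0.345, 1.89 and 0.521 CPM in WT and at 0.4, 0.161 and 0.316 CPM in Zeb2 cKO hearts. Its log2 fold change of -1.64 ± 0.70 (SE, adjusted p = 0.957) moved between -2.03 and -0.54 with any 1 library left out. E2f5 and E2f7, both repressors of the E2F family, had log2 fold changes of -0.44 and 0.48.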

How the data were processed

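Bulk RNA-seq of heart tissue was available for 3 WT and 3 Zeb2 cKO mice, and groups and replicate numbers were taken from the sample labels. The authors deposited raw counts per gene in 1 table, made without normalization. In the methods, stranded libraries were made by the authors from total RNA after removal of ribosomal RNA. They sequenced single-end reads of 75 bases and counted them on Gencode M4 with the STAR workflow. The submitters' processing notes name GRCm38, mm10 and DESeq 1.2. The STAR version, the strand option and the handling of reads with several positions are not given in the sources used here. All columns of counts were matched to samples, and 0 were left unmatched.

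The steps below were computed from the deposited counts. Symbols and coordinates came from Gencode M21 (GRCm38) by gene identifier, which gave symbols to 14573 of the 14746 genes tested. In R 4.3.3, edgeR 4.0.16 was used for TMM normalization and for the filter (filterByExpr), and genotype was tested over all genes with glmQLFit and glmQLFTest and Benjamini-Hochberg adjustment. List means used log2 CPM with a prior count of 2, and fold changes a prior count of 0.125. Single genes were compared with exact permutation tests on CPM, two-sided. DESeq2 1.42.0 was an alternative. Shared sequence was searched with BLAST 2.17.0 (at least 75 bases at 95% identity). Each library held 37288174 counts or more, of which 14301225 or more lay outside the mitochondrially encoded genes. Genes of the module held between 8 and 3310 counts in a library. How much of their spread came from counting, and how much from differences between mice, was not tested. The labels do not say more of the animals than the group and number, so p-values measure the spread between these libraries. The steps were tested on simulated data.

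The members and lists were chosen with earlier results of these data known. Genes were named by rule: in each role the 3 smallest p and the highest level per length, 13 common markers, the genes of smallest p of the other lists, and Zeb2. Some members outside the rule are given for completeness after their values were seen. The promoter of Cdkn1a, which the rule also names, held none of the motifs and is not printed. Alternatives covered normalization, filter, test, dispersions, prior count, mitochondrially encoded genes, the median in place of the mean, the replicate block and each library left out. Among the lymphocyte markers, 1 gene is not reported here, and no value of that list as a whole is given.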

Additional observations from a re-analysis of the deposited data

How the results depend on the processing

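With DESeq2 in place of edgeR, 1 gene of the whole table passed an adjusted p of 0.05 rather than 0. Of the 49 genes, 5 under -0.2 and 9 over 0.2 was also the count with DESeq2 size factors, without the filter on low counts, with DESeq2's Wald test, without mitochondrially encoded genes and with robust dispersions. Leaving out 1 library moved the counts, for causes that were not tested, to 3 to 17 under -0.2, 4 to 32 over 0.2, 0 to 2 lower and 0 to 4 higher at an unadjusted p under 0.05, and 6 to 31 other cell cycle genes under -0.2. The difference of the means ranged from -0.18 to 0.26 for the module, -0.22 to -0.023 for G1 and S entry, -0.23 to 0.076 for DNA replication and -0.17 to 0.43 for G2 and mitosis. Over 19 named genes, 98 of 114 values without 1 library kept their sign and 16 reversed. The log2 fold changes that reversed ranged from -0.22 to 0.55 for Ccnb1, -0.19 to 0.081 for Ccnd3, -0.11 to 0.41 for Cdk1, -0.34 to 0.025 for Cdkn1b, -0.61 to 1.0 for Cenpf, -0.2 to 0.33 for Mcm2, -0.17 to 0.27 for Mcm5, -0.16 to 0.54 for Mki67 and -0.2 to 0.48 for Top2a. Under the other alternatives 110 of 114 kept their sign. Mcm5, at -0.0013, was 0.00086 with DESeq2 size factors, 0.017 without the filter and 0.003 with DESeq2.

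Replicate numbers occur in both groups but come from different mice, and the correlations of same-numbered deviations were 0.0878, -0.137 and -0.0869, so the numbers were not taken as pairs. With the replicate block, 7 genes lay under -0.2 and 8 over 0.2, 0 had an unadjusted p under 0.05, and Ccnb1 was -0.036 rather than 0.13. No library correlated best with its own number. WT replicates 1, 2 and 3 correlated best with Zeb2 cKO replicates 2 (0.19), 3 (0.238) and 1 (0.092).

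Depth limits the genes of low count, since the 49 genes ranged from 8 to 3310 counts per library, with Plk1 and Ccnb1 among the lowest. With 3 mice a group, the exact test cannot go below p = 0.1, and a genotype difference smaller than the spread of the Zeb2 cKO mice was not detectable here.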
